A study of Mus musculus with 12 samples.

Results

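Cldn1, Myl10, Cystm1 and Gm1673 are 4 protein-coding mouse genes of 28987 in the table that were chosen by their mRNA level, which was lower in RUNX1 mutant than in wild type (WT) haematopoietic stem and progenitor cells (HSCPs). The choice rests on the RUNX1 mutant and WT HSCP values of this same table, so those values are given here as a description, without a test. Tests were run in the 8 other libraries. The HSCPs of every genotype are described throughout, with the Ly6G+ cells of the CBL/RUNX1 mutant and WT. No Ly6G+ cells of the single mutants were sequenced. RNA sequencing covered 12 libraries of C57BL/6 bone marrow, 2 for each of 6 groups. The mutant groups were CBL/RUNX1 mutant HSCPs, RUNX1 mutant HSCPs, CBL mutant HSCPs and CBL/RUNX1 mutant Ly6G+ cells, a sorted mature myeloid population, and the WT groups were WT HSCPs and WT Ly6G+ cells. Per the labels' protocols, marrow came from individual mice, HSCPs were enriched with a CD117 kit and the mutant cells were a clone sorted by flow cytometry. The labels used here do not give the alleles, how the mutations were introduced or the ages of the mice, and a difference in preparation between mutant and WT cells cannot be told apart from the genotype. Values are TPM, a gene's share of a library's transcripts after correction for length, and the read depth behind them is unknown.

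In the GRCm38 annotation Cldn1 (ENSMUSG00000022512) lies on the minus strand of chromosome 16, from 26356642 to 26371841. Myl10 (ENSMUSG00000005474) lies on the plus strand of chromosome 5, from 136693146 to 136701094, and Gm1673 (ENSMUSG00000070858) on the plus strand of the same chromosome, from 33983433 to 33985013. Cystm1 (ENSMUSG00000046727) lies on the plus strand of chromosome 18, from 36342520 to 36403097. No other annotated gene overlaps any of the 4. The annotation holds 2 transcripts of Cldn1, 6 of Myl10, 13 of Cystm1 and 5 of Gm1673, and the table gives 1 value per gene, so transcripts of a gene are not separated.

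RUNX1 is a DNA-binding transcription factor needed for the formation of blood stem cells, and it activates some genes and silences others in myeloid, lymphoid and megakaryocytic cells. CBL tags activated receptors of cytokines and growth factors with ubiquitin and so limits their signalling. Claudin-1, the product of Cldn1, is a membrane protein of tight junctions, the seals between neighbouring epithelial cells, and is best known from the epidermis. Myl10 encodes a regulatory light chain of myosin and carries the synonym PLRLC in RefSeq, from its description in precursor lymphocytes. Cystm1 encodes a small protein with a cysteine-rich transmembrane module, a motif known from stress responses in plants and fungi. Gm1673 encodes a small predicted secreted protein and is the mouse counterpart of human C4orf48.

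The start regions of 3 of the genes are shown because the genes were chosen for a lower level in RUNX1 mutant HSCPs, and RUNX1 binds DNA. Whether RUNX1 acts on these genes was not tested. Each is a window of 300 bases, most of it upstream, around a RefSeq start (GRCm38.p6), in the direction of transcription. They are chr16:26371790-26372089 (minus strand) for Cldn1, chr5:136692896-136693195 (plus strand) for the first of 3 Myl10 starts and chr5:33983183-33983482 (plus strand) for Gm1673. Capitals mark the core letters of the RUNX motif, TGTGG or TGCGG, on either strand.
Cldn1: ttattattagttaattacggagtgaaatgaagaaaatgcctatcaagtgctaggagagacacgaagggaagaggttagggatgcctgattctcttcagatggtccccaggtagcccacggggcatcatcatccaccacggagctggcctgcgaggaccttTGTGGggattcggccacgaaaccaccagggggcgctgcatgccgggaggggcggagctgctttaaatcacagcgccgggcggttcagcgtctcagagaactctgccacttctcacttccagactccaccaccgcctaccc
Myl10: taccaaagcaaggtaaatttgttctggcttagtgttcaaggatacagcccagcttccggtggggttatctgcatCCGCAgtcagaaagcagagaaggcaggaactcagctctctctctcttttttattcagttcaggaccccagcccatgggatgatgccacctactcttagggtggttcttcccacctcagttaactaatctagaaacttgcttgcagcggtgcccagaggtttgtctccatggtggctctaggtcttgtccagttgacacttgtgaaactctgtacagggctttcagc
Gm1673: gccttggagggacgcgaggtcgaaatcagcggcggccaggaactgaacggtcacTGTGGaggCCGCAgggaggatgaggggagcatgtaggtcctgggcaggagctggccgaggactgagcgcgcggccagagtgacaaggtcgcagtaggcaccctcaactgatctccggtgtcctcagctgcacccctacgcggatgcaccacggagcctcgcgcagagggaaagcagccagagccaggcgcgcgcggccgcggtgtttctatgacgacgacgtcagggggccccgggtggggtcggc
The Cldn1 window holds 1 core, TGTGG at -90 from the start, and the first Myl10 window holds TGCGG on the reverse strand at -176. The Gm1673 window holds TGTGG at -196 and TGCGG on the reverse strand at -188. Of 32851 RefSeq start regions of 300 bases, 55.9% hold TGTGG and 31.6% hold TGCGG on at least 1 strand. None of the 5 windows of these 3 genes holds the longer TGTGGT or TGCGGT on either strand, letters that 22.4% of all start regions hold. The other 2 Myl10 windows hold no core. A match is a description of these letters and not a bound site.

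Cldn1 was near 0 in every library whose genotype carried the RUNX1 mutation. It had 0.0653 and 0.0657 TPM in CBL/RUNX1 mutant HSCPs, against 20.3 and 15.4 TPM in CBL mutant HSCPs. RUNX1 mutant HSCPs were listed at 0 and 0.156 TPM, against 9.49 and 9.67 TPM in WT HSCPs. In Ly6G+ cells the values were 0.0817 and 0.170 TPM in the CBL/RUNX1 mutant, against 19.4 and 23.0 TPM in WT. All 6 libraries with mutant RUNX1, those of the choice included, thus lay below all 6 without it, among HSCP and Ly6G+ libraries alike. The highest group mean was 21.2 TPM ± 2.58 (SD, n = 2) in WT Ly6G+ cells, followed by 17.8 ± 3.48 in CBL mutant HSCPs, whose libraries overlapped it, and by 9.58 ± 0.124 in WT HSCPs. The 3 groups with mutant RUNX1, at 0.126 ± 0.0622, 0.0779 ± 0.110 and 0.0655 ± 0.000319 TPM, overlapped in that the range of the RUNX1 mutant pair took in or crossed both of the others.

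Myl10 had its highest level in CBL mutant HSCPs and a low level where RUNX1 was also mutant. CBL/RUNX1 mutant HSCPs had 1.22 and 0.351 TPM, against 49.2 and 64.7 TPM in CBL mutant HSCPs. RUNX1 mutant HSCPs had 2.33 and 1.96 TPM, against 8.17 and 9.21 TPM in WT HSCPs. Within HSCPs these 4 groups did not overlap. The Ly6G+ cells differed from that picture, with 8.53 and 0.880 TPM in the CBL/RUNX1 mutant, against 2.25 and 2.84 TPM in WT. The first CBL/RUNX1 mutant Ly6G+ library stood above both WT ones and the second below them. By group mean the order was 56.9 TPM ± 10.95 (SD, n = 2) in CBL mutant HSCPs, 8.69 ± 0.733 in WT HSCPs, 4.71 ± 5.41 in CBL/RUNX1 mutant Ly6G+ cells, 2.54 ± 0.423 in WT Ly6G+ cells, 2.14 ± 0.265 in RUNX1 mutant HSCPs and 0.787 ± 0.617 in CBL/RUNX1 mutant HSCPs. The CBL/RUNX1 mutant Ly6G+ pair overlapped both of its neighbours in that order, and WT Ly6G+ cells overlapped RUNX1 mutant HSCPs.

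Cystm1 was highest in WT HSCPs and lower in every mutant group, most of all with mutant RUNX1. CBL/RUNX1 mutant HSCPs had 0.439 and 0.259 TPM, against 3.17 and 5.28 TPM in CBL mutant HSCPs. RUNX1 mutant HSCPs had 0.0819 and 1.81 TPM, against 18.5 and 15.6 TPM in WT HSCPs. In Ly6G+ cells the CBL/RUNX1 mutant had 1.02 and 0.701 TPM, against 5.61 and 5.81 TPM in WT. The 6 libraries with mutant RUNX1 again lay below the 6 without, by a narrower margin than for Cldn1. Group means were 17.0 TPM ± 2.03 (SD, n = 2) in WT HSCPs, 5.71 ± 0.143 in WT Ly6G+ cells and 4.23 ± 1.49 in CBL mutant HSCPs, and the difference between the last 2 was no larger than the SD of the CBL mutant pair. RUNX1 mutant HSCPs at 0.946 ± 1.22 spanned the values of CBL/RUNX1 mutant HSCPs at 0.349 ± 0.127 and of CBL/RUNX1 mutant Ly6G+ cells at 0.862 ± 0.228.

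Gm1673 followed the same order as Cystm1 within HSCPs. CBL/RUNX1 mutant HSCPs had 0.665 and 1.07 TPM, against 6.999 and 8.67 TPM in CBL mutant HSCPs. RUNX1 mutant HSCPs had 2.13 and 1.91 TPM, against 18.2 and 19.6 TPM in WT HSCPs. The 4 HSCP groups did not overlap. In Ly6G+ cells the CBL/RUNX1 mutant had 1.88 and 6.78 TPM, against 3.83 and 3.84 TPM in WT, so that 1 mutant library was below and 1 above both WT libraries. Group means were 18.9 TPM ± 0.965 (SD, n = 2) in WT HSCPs, 7.83 ± 1.18 in CBL mutant HSCPs, 4.33 ± 3.47 in CBL/RUNX1 mutant Ly6G+ cells, 3.83 ± 0.0103 in WT Ly6G+ cells, 2.02 ± 0.153 in RUNX1 mutant HSCPs and 0.870 ± 0.290 in CBL/RUNX1 mutant HSCPs. The CBL/RUNX1 mutant Ly6G+ pair spanned the means of WT Ly6G+ cells and of RUNX1 mutant HSCPs.

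**Figure D1:**
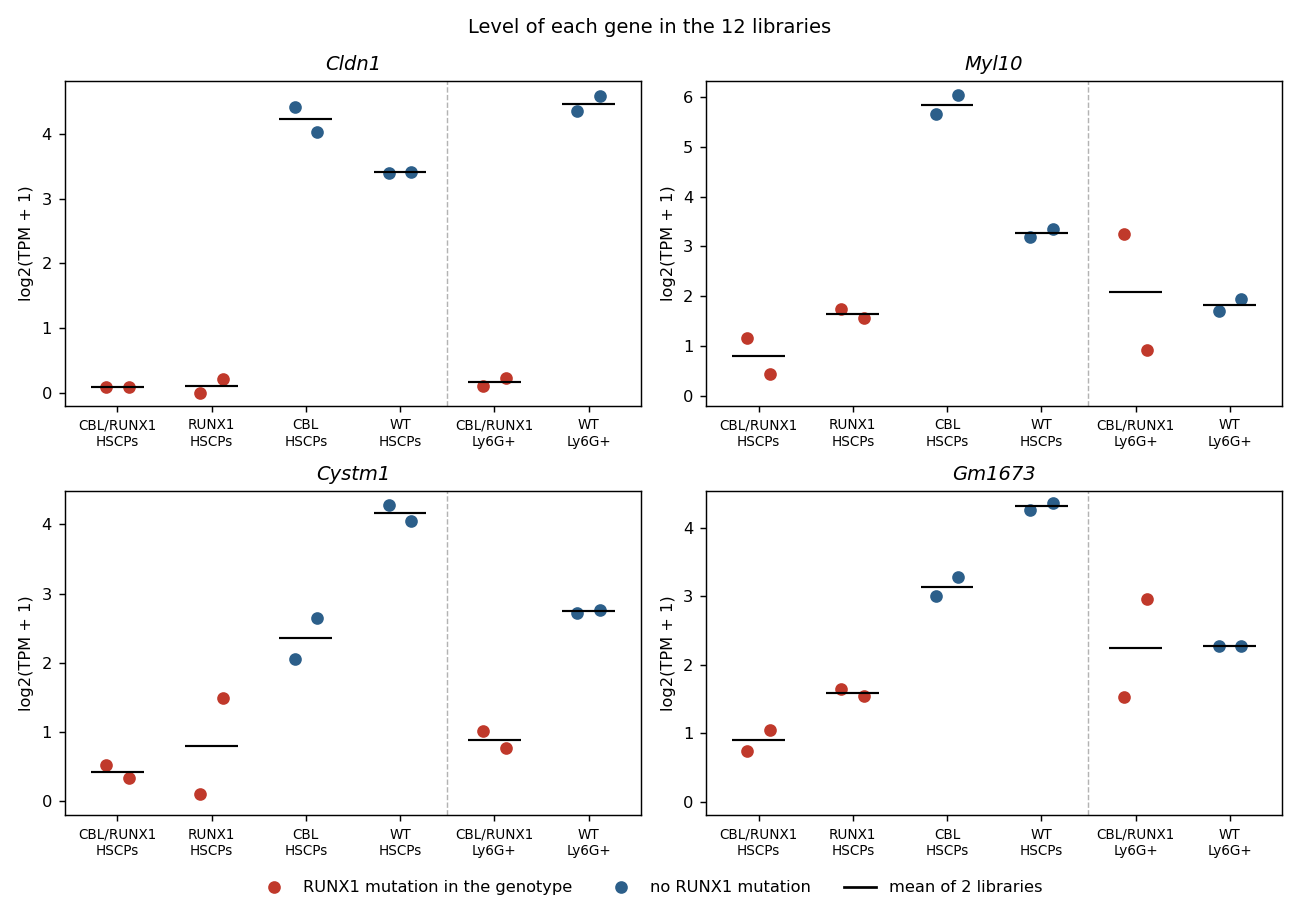
Level of the 4 genes as log2(TPM + 1) in each of the 12 libraries, by group, with CBL/RUNX1, RUNX1 and CBL mutant and WT HSCPs left of the dashed line and Ly6G+ cells right of it. Points are libraries, bars are the means of 2 libraries and red marks genotypes with mutant RUNX1. Cldn1 is at or below 0.170 TPM in all red points and at 9.49 TPM or more in all blue ones, whereas Myl10 and Gm1673 overlap between the Ly6G+ groups.

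The name under which the genes were put together, genes lost with mutant RUNX1, holds for Cldn1 and in part for the others. Cystm1 and Gm1673 were also lower in CBL mutant than in WT HSCPs, where no RUNX1 mutation is present. With mutant RUNX1, Cldn1 reached at most 0.170 TPM, against 1.81 TPM for Cystm1, 8.53 TPM for Myl10 and 6.78 TPM for Gm1673. Myl10 and Gm1673 overlapped between the Ly6G+ groups. The part of the name that sets them outside the blood lineages was not tested, since the table holds no other tissues.

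Libraries of the same group were not equally alike. The SD across genes of the log2 difference between replicates was 0.709 in RUNX1 mutant HSCPs and 0.998 in CBL/RUNX1 mutant Ly6G+ cells, while the remaining 4 groups had 0.301 to 0.376. The HSCP libraries held neutrophil mRNA. Over 14 neutrophil markers the summed level was 97228 and 110110 TPM in CBL/RUNX1 mutant, 152541 and 322344 in RUNX1 mutant, 316737 and 262520 in CBL mutant and 334678 and 359571 in WT HSCPs. In Ly6G+ cells it was 90582 and 333032 TPM in the CBL/RUNX1 mutant and 418992 and 415775 in WT. Kit mRNA, which encodes the selected receptor CD117, ranged from 24.5 to 229 TPM in HSCPs and from 5.89 to 38.0 TPM in Ly6G+ cells. Ly6g mRNA was 25.2 and 14.2 TPM in CBL/RUNX1 mutant and 26.2 and 384 TPM in RUNX1 mutant HSCPs. CBL mutant HSCPs had 586 and 452 TPM of Ly6g, and WT HSCPs 482 and 504 TPM. In Ly6G+ cells Ly6g was 389 and 1448 TPM in the CBL/RUNX1 mutant and 2017 and 2026 TPM in WT. The first CBL/RUNX1 mutant Ly6G+ library thus had less Ly6g mRNA than any CBL mutant or WT HSCP library. Runx1 mRNA was 45.3 to 257 TPM in the 6 libraries labelled with a RUNX1 mutation and 8.77 to 16.4 TPM in the other 6. Cbl mRNA was 73.7 to 144 TPM in the 6 libraries labelled with a CBL mutation and 17.9 to 45.0 TPM in the other 6. The table does not separate the endogenous genes from introduced copies.

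The comparison of CBL/RUNX1 mutant with CBL mutant HSCPs took groups whose labels differ in RUNX1, in libraries that did not choose the genes. Ngfr mRNA also split these groups, at 92.0 and 92.6 TPM against 0.0300 and 0.0431 TPM. A difference in preparation that goes with Ngfr cannot be told apart from mutant RUNX1. Of the 4 genes, 3 fell and Gm1673 did not pass. In limma, fitted to log2(scaled TPM + 1) of the 8 libraries with p-values adjusted by Benjamini-Hochberg over 12823 genes, 60 genes were called lower, which is 0.468% of those tested, and 29 higher, which is 0.226%. Together these are 0.694%, and 14.8% had an unadjusted p under 0.05. Cldn1 fell by 4.11 ± 0.23 (SE, adjusted p = 0.0042), the second smallest p of all genes. Myl10 fell by 5.13 ± 0.57 (SE, adjusted p = 0.0247) and Cystm1 by 1.97 ± 0.25 (SE, adjusted p = 0.037). Cldn1 and Cystm1 would not have met the filter of 1 TPM in at least 2 libraries without the groups that lack mutant RUNX1. With no filter on low values, limma gave adjusted p = 0.0108 for Cldn1 and 0.0496 for Cystm1. The same filter and fit serve the comparison of Ly6G+ cells below. Gm1673 had a difference of -2.32 ± 0.56 (SE, adjusted p = 0.14), although its groups did not overlap. That SE pools the spread of all 4 groups fitted. Gm1673 varied most in CBL/RUNX1 mutant Ly6G+ cells, with 1.17 and 3.02 as log2(scaled TPM + 1). The compared pairs had 2.98 and 3.24 in CBL mutant and 0.62 and 0.96 in CBL/RUNX1 mutant HSCPs. In limma on these 4 HSCP libraries alone, which called 2159 genes, Gm1673 had adjusted p = 0.00198. The median over the 4 genes was -3.22, beside 0.02 over all genes tested. The added 1 compresses these differences, and as a ratio of mean TPM the level in CBL mutant HSCPs was 272-fold that in CBL/RUNX1 mutant HSCPs for Cldn1, 72.3-fold for Myl10, 12.1-fold for Cystm1 and 9.003-fold for Gm1673.

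These calls rest on few libraries. Without CBL mutant HSCP library 1, CBL/RUNX1 mutant HSCP library 1 or library 2, Cldn1 had adjusted p = 0.0714, 0.115 and 0.1. Without any 1 of the CBL mutant HSCP, CBL/RUNX1 mutant HSCP or WT Ly6G+ libraries, Myl10 had adjusted p-values of 0.0897 to 0.281 and Cystm1 of 0.126 to 0.358. Leaving out the first or the second CBL/RUNX1 mutant Ly6G+ library, in contrast, gave Gm1673 adjusted p = 0.000669 and 0.000823. The number of genes called was 0 to 5 without a library of the compared groups, 15 without either WT Ly6G+ library, and 2631 and 2641 without CBL/RUNX1 mutant Ly6G+ library 1 and 2. The differences themselves stayed between -3.92 and -4.31 for Cldn1, between -4.83 and -5.42 for Myl10 and between -1.68 and -2.25 for Cystm1 over these omissions.

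The comparison of CBL/RUNX1 mutant with WT Ly6G+ cells asked what both mutations do in mature myeloid cells, again in libraries that did not choose the genes. Cldn1 and Cystm1 fell there too, whereas Myl10 and Gm1673 did not pass. Cldn1 had a difference of -4.63 ± 0.23 (SE, limma, adjusted p = 0.00174), the third smallest p of 12823 genes, and a mean TPM in WT that was 168-fold that in the mutant. Cystm1 had -2.26 ± 0.25 (SE, adjusted p = 0.0165) and a WT mean 6.62-fold that in the mutant. In all, 201 genes were called lower, 1.57% of those tested, and 160 higher, 1.25%. Together these are 2.82%, and 29.4% had an unadjusted p under 0.05. Markers of other cells were called lower in the same comparison, namely 1 of 5 plasma cell markers tested (Jchain, -5.10), 1 of 7 of mast cells, basophils and eosinophils (Fcer1a, -3.69), 2 of 8 of T and natural killer cells (Cd3d, -2.44, and Ncr1, -2.11), 1 of 12 erythroid (Car1, -2.26) and 1 of 13 of B cell precursors (Cd79b, -0.77). Medians of these lists were -1.06, -2.10, -1.50, -1.73 and -0.77 in that order, with 2, 6, 6, 4 and 7 markers at an unadjusted p under 0.05. Of 12 stem and progenitor markers 1, Cd34, was called higher, with 3.29. The part of these cells in the levels of Cldn1 and Cystm1 was not tested. Myl10 had -0.23 ± 0.57 (SE, adjusted p = 0.792), which became 0.26 with TPM left unscaled between libraries. Gm1673 had -0.45 ± 0.56 (SE, adjusted p = 0.581). Both values turned on which mutant library was kept. Without CBL/RUNX1 mutant Ly6G+ library 2, Gm1673 had -1.37 (adjusted p = 0.00262) and Myl10 had 0.67 (adjusted p = 0.0889), and without library 1 Gm1673 had 0.47 (adjusted p = 0.226) and Myl10 -1.13. Cldn1 had adjusted p = 0.0517 and 0.0588 without WT Ly6G+ library 1 and 2. Cystm1 had adjusted p-values of 0.0536 to 0.187 without any 1 of the WT Ly6G+, CBL mutant HSCP or CBL/RUNX1 mutant HSCP libraries. The number of genes called was 2 to 26 without any 1 of those 6 libraries, and 1397 and 7617 without CBL/RUNX1 mutant Ly6G+ library 1 and 2.

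Between the populations of the double mutant, CBL/RUNX1 mutant Ly6G+ cells against CBL/RUNX1 mutant HSCPs, none of the 4 genes passed (limma, 0 of 4 also at an unadjusted p under 0.05), while 9.9% of genes were called higher and 13.6% lower, 23.5% together, and 39.3% had an unadjusted p under 0.05. Cldn1 had a difference of 0.08 ± 0.23 (SE, adjusted p = 0.822) and Cystm1 one of 0.41 ± 0.25 (SE, adjusted p = 0.275). Myl10 had 1.16 ± 0.57 (SE, adjusted p = 0.184) and Gm1673 had 1.31 ± 0.56 (SE, adjusted p = 0.136). Without CBL/RUNX1 mutant Ly6G+ library 2 Myl10 had 2.06 (adjusted p = 0.00279), and without library 1 Gm1673 had 2.23 (adjusted p = 0.000299). The number of genes called was 3016 with all 8 libraries, 443 and 7 without CBL/RUNX1 mutant HSCP library 1 and 2, 1443 to 1663 without any 1 of the CBL mutant HSCP and WT Ly6G+ libraries, and 7452 and 5303 without CBL/RUNX1 mutant Ly6G+ library 1 and 2.

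**Figure D2:**
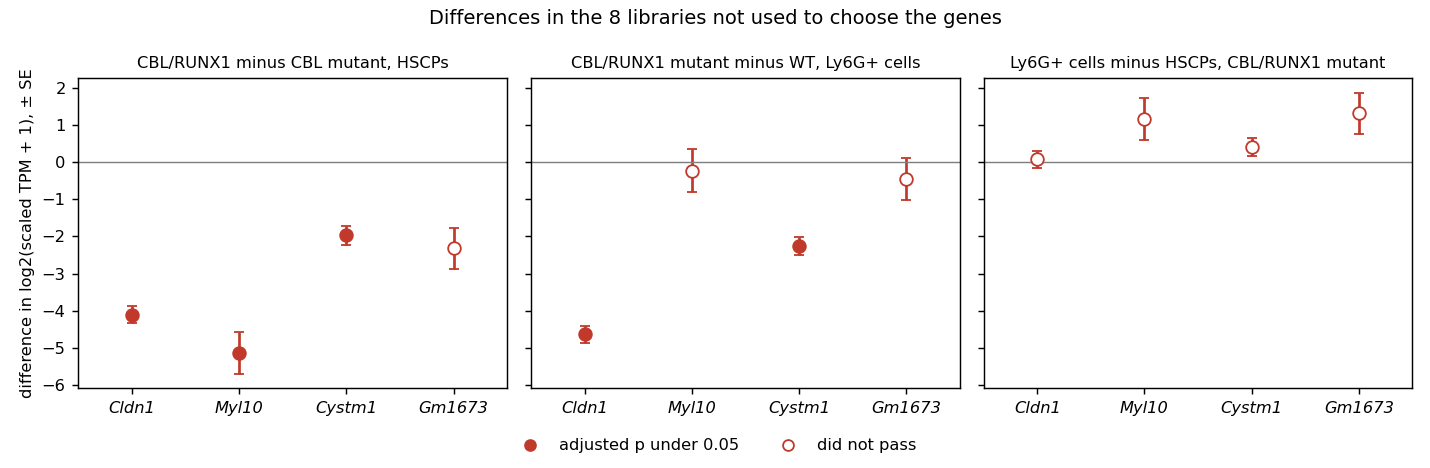
Difference in log2(scaled TPM + 1) of the 4 genes, with its SE from limma, in the 3 comparisons among the 8 libraries that did not choose the genes. Filled points passed an adjusted p of 0.05 and open points did not. Cldn1 and Cystm1 are filled and below 0 in the first 2 panels, Myl10 in the first only, and all points of the third panel are open.

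Comparisons with the libraries that chose the genes are given as values only. RUNX1 mutant minus WT HSCPs, the contrast of the choice, gave -3.64 for Cldn1, -2.08 for Myl10, -3.72 for Cystm1 and -3.19 for Gm1673 on the log2(scaled TPM + 1) scale. In that contrast 2.26% of genes had a difference of -1 or lower without overlap between the groups, 3.03% had 1 or higher, and nothing is read from the 4 genes being among them. CBL/RUNX1 mutant minus WT HSCPs, which shares the WT libraries, gave -3.68, -2.94, -4.16 and -3.89 in the same gene order, where 6.92% of genes were so placed on the lower side and 4.1% on the higher. CBL mutant minus WT HSCPs shares them too. It gave 0.44 for Cldn1, 2.19 for Myl10, -2.20 for Cystm1 and -1.57 for Gm1673, each without overlap between the groups. The share of genes with a difference of 1 or higher and no overlap was 2.65% in that contrast, and of those with -1 or lower 1.76%. With the CBL mutation, Myl10 thus stood 6.55-fold above its WT mean, and Cystm1 and Gm1673 at 0.249 and 0.415 of theirs.

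CBL/RUNX1 mutant minus RUNX1 mutant HSCPs shares the RUNX1 mutant libraries with the choice and gave smaller values. Myl10 had -0.85 and Gm1673 -0.70, both without overlap. Cldn1 had -0.03 and Cystm1 -0.45, both with overlapping groups. Of all genes, 3.45% were lower and 2.58% higher by at least 1 without overlap. WT Ly6G+ cells minus WT HSCPs gave 1.03 for Cldn1, the only 1 of the 4 that was higher in the mature cells, and -1.55, -1.49 and -2.13 for Myl10, Cystm1 and Gm1673. In that contrast 16.8% of genes were lower and 15.8% higher by at least 1 without overlap, so placements of this kind were common. In bulk samples, fewer cells of a type and less RNA per cell cannot be told apart.

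Across all 12 libraries, 46 of 13155 genes (0.35%) were lower in every library with mutant RUNX1 than in every library without, and Cldn1 and Cystm1 were among them. This count includes the libraries that chose the genes and is a description. The lowest Cldn1 level without mutant RUNX1, 9.49 TPM, was 55.9-fold the highest level with it, 0.170 TPM. That was the widest gap of the 46 on the log2(TPM + 1) scale, 3.17, followed by 1.22 for Stk39, a kinase gene of ion transport, and 0.97 for Lmo1, a transcription cofactor gene. Cystm1 had the eighth widest, 0.57. Among the 8 libraries outside the choice, 1.36% of 12823 genes were lower in all 4 CBL/RUNX1 mutant libraries than in all 4 CBL mutant HSCP and WT Ly6G+ ones, and again Cldn1 and Cystm1 were among them and Myl10 and Gm1673 were not. Cldn1 and Cystm1 also stayed in the set without RUNX1 mutant HSCP library 1, when it held 50 genes, and without CBL/RUNX1 mutant Ly6G+ library 1, when it held 55.

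**Figure D3:**
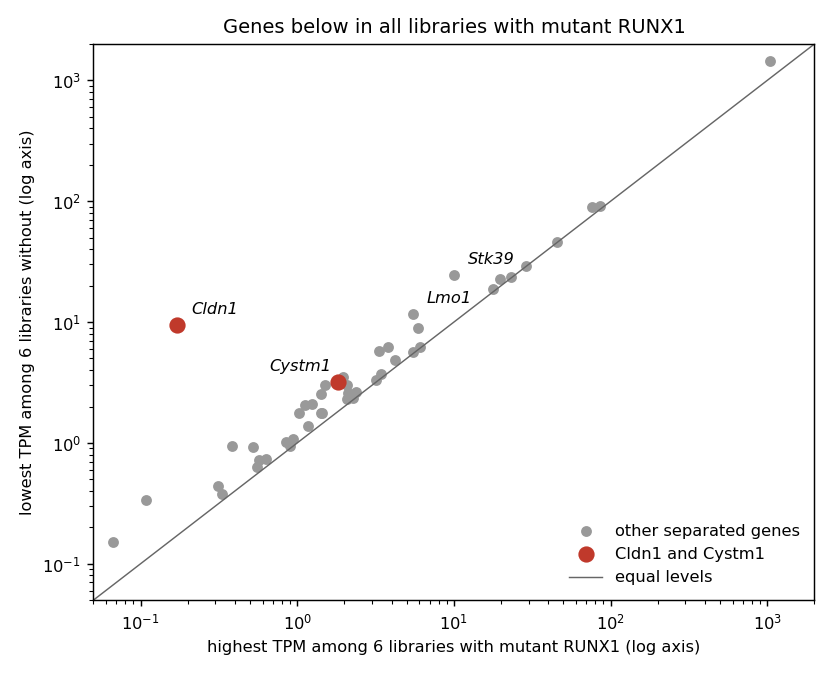
The 46 genes lower in all 6 libraries with mutant RUNX1 than in all 6 without, with the highest TPM among the libraries with mutant RUNX1 on the x axis and the lowest among the others on the y axis, both log axes. The line marks equal levels. Cldn1 lies farthest above the line, with 9.49 against 0.170 TPM, while Cystm1 lies near it with 3.17 against 1.81 TPM.

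Markers of other cells were set beside each gene. Of 14 neutrophil markers none was called between CBL/RUNX1 mutant and CBL mutant HSCPs (limma, 7 at an unadjusted p under 0.05), with a median difference of -2.09, and none between CBL/RUNX1 mutant and WT Ly6G+ cells (3 at an unadjusted p under 0.05), with a median of -1.65. In libraries with mutant RUNX1 the 14 markers summed to between 90582 and 333032 TPM, and Cldn1 was at most 0.170 TPM. In libraries without it the sums ran from 262520 to 418992 TPM, and Cldn1 was at least 9.49 TPM. These ranges include the libraries that chose the genes. The part of neutrophil content in the levels of the 4 genes was not tested. Of 12 stromal, endothelial and epithelial markers, the keratin genes Krt5 and Krt14 were listed at 0 in every group. Of the 5 tested, none was called between CBL/RUNX1 mutant and CBL mutant HSCPs, with a median difference of -0.40. There 2, Epcam and Cdh1, had an unadjusted p under 0.05 (limma). Between CBL/RUNX1 mutant and WT Ly6G+ cells none was called either, with a median of 0.08 and 1, Cdh1, at an unadjusted p under 0.05. The sum of that list was 28.02 to 94.5 TPM in HSCPs with mutant RUNX1 and 20.5 to 40.2 TPM in HSCPs without. In Ly6G+ cells it was 87.7 and 16.0 TPM in the CBL/RUNX1 mutant and 15.6 and 14.1 TPM in WT.

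Myl10 and the summed markers of T and natural killer cells were both highest in CBL mutant HSCPs. The sum of 9 such markers was 12.5 and 12.2 TPM in CBL/RUNX1 mutant HSCPs, where Cd3e and Cd3g were at 0 in both libraries, against 241 and 320 TPM in CBL mutant HSCPs. Of the 8 T and natural killer cell markers tested there, Nkg7 and Gzma, cytotoxic granule genes, fell by 4.04 ± 0.41 and 3.44 ± 0.40 (SE, limma, adjusted p = 0.0196 and 0.0284). The sum was 37.5 and 102 TPM in RUNX1 mutant and 184 and 186 TPM in WT HSCPs. In Ly6G+ cells the sum was 70.2 and 16.5 TPM in the CBL/RUNX1 mutant and 46.1 and 47.8 TPM in WT. The part of these cells in the Myl10 level was not tested. The first CBL/RUNX1 mutant Ly6G+ library, the one with 8.53 TPM of Myl10, also had 789 TPM of Dntt, which encodes the terminal transferase of lymphocyte precursors, against 15.1 TPM in the second. Over 13 markers of B cell precursors, Dntt included, the sum was 964 and 96.3 TPM in these libraries, against 288 and 175 TPM in WT Ly6G+ cells. Without Dntt the other 12 markers summed to 174 and 81.2 TPM in the CBL/RUNX1 mutant, against 257 and 162 TPM in WT Ly6G+ cells. The median difference over the 13 was -0.77, with 1 marker, Cd79b, called lower and 7 at an unadjusted p under 0.05 (limma). In HSCPs the sum of all 13 was 62.6 and 27.5 TPM in CBL/RUNX1 mutant, 133 and 35.7 in RUNX1 mutant, 94.0 and 56.7 in CBL mutant and 74.9 and 69.1 in WT. No marker of that list was at 0 in both libraries of any group. Dntt itself had 18.8 and 25.1 TPM in CBL mutant HSCPs, where Myl10 was highest, and 95.4 and 7.63 TPM in RUNX1 mutant HSCPs. It had 17.7 and 2.06 TPM in CBL/RUNX1 mutant HSCPs, 6.50 and 5.92 in WT HSCPs, and 31.2 and 12.7 in WT Ly6G+ cells. The part of lymphocyte precursors in the Myl10 level was not tested.

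Cystm1, Gm1673 and plasma cell mRNA were each highest in WT HSCPs, but their order differed in other groups. RUNX1 mutant HSCPs had more plasma cell mRNA than CBL mutant HSCPs, and less Cystm1 and Gm1673. The sum of 7 plasma cell markers was 157 and 164 TPM in CBL/RUNX1 mutant, 271 and 445 in RUNX1 mutant, 126 and 159 in CBL mutant and 1384 and 1300.1 in WT HSCPs. In Ly6G+ cells it was 165 and 173.5 TPM in the CBL/RUNX1 mutant and 449 and 410.5 TPM in WT. No marker of that list was at 0 in both libraries of any group, and its part in the levels of Cystm1 and Gm1673 was not tested. Mecom, a stem cell transcription factor gene, was 0.510 and 0.786 TPM in CBL/RUNX1 mutant, 4.15 and 1.62 in RUNX1 mutant, 20.2 and 13.8 in CBL mutant and 68.5 and 47.3 in WT HSCPs, the same order as Cystm1 and Gm1673. Of 12 stem and progenitor markers only Mecom was called between CBL/RUNX1 mutant and CBL mutant HSCPs (limma, 4 at an unadjusted p under 0.05). The median difference of that list was 0.01. Its sum was 372 and 240 TPM in CBL/RUNX1 mutant and 927 and 149 TPM in RUNX1 mutant HSCPs. CBL mutant HSCPs had a sum of 219 and 172 TPM, and WT HSCPs 178 and 153 TPM. In WT Ly6G+ cells Mecom was at 0.0527 and 0.0109 TPM, while Cystm1 was at 5.61 and 5.81 TPM. Ngfr, a neurotrophin receptor gene, ran another way, and an introduced copy of it could not be told from the endogenous one. It had 92.0 and 92.6 TPM in CBL/RUNX1 mutant, 49.6 and 168 in RUNX1 mutant, 0.0300 and 0.0431 in CBL mutant and 160 and 136 TPM in WT HSCPs. In Ly6G+ cells Ngfr had 62.1 and 83.7 TPM in the CBL/RUNX1 mutant against 0.351 and 0.136 TPM in WT. Among the 8 libraries tested, Ngfr was thus high where RUNX1 was mutant and low where it was not. A difference in preparation that goes with Ngfr cannot be told apart from mutant RUNX1 in those tests.

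Few of the relatives of Cldn1 were expressed. Of 23 claudin genes in the table, 5 reached 1 TPM in at least 2 libraries, namely Cldn1, Cldn7, Cldn12, Cldn13 and Cldn15, and 6 were at 0 in all 12 libraries. None of the other 4 was called in the comparison of CBL/RUNX1 mutant with CBL mutant HSCPs (limma, 0 of 4 also at an unadjusted p under 0.05), with a median difference of -0.55. In Ly6G+ cells none was called either, with a median of -2.28 and 2 at an unadjusted p under 0.05, Cldn13 and Cldn15. Cldn15, the claudin gene with the highest TPM in each of the 12 libraries, had 64.8 and 78.9 TPM in CBL/RUNX1 mutant, 103 and 123 in RUNX1 mutant, 79.1 and 110.4 in CBL mutant and 96.4 and 87.3 TPM in WT HSCPs. In Ly6G+ cells it had 13.1 and 43.1 TPM in the CBL/RUNX1 mutant, against 87.2 and 101 TPM in WT, a difference of -2.49 ± 0.67 (SE, limma, adjusted p = 0.092) between groups that did not overlap. Of 15 other tight junction genes 9 were tested and none was called in any of the 3 comparisons (limma), with 0, 1 and 0 at an unadjusted p under 0.05. Their medians were 0.13 in HSCPs and 0.41 in Ly6G+ cells. Ocln, which encodes occludin, a partner of claudins in tight junctions, was at most 0.144 TPM in any library, and Tjp1, which encodes the scaffold protein ZO-1, had 9.94 and 6.25 TPM in CBL/RUNX1 mutant against 3.93 and 2.54 TPM in CBL mutant HSCPs.

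Myl10 was a minor myosin light chain in these cells. By TPM, which is corrected for length, Myl6 had 938 to 1886 TPM, Myl12b 293 to 634 TPM and Myl12a 192 to 390 TPM over the 12 libraries, against 0.351 to 64.7 TPM for Myl10. Myl12a and Myl12b encode the regulatory light chains of non-muscle myosin, and Myl6 encodes an essential light chain. Of the 12 light chain genes 8 reached 1 TPM in at least 2 libraries, and of the 7 other than Myl10 none was called in HSCPs (limma, 1 at an unadjusted p under 0.05, Myl4) or in Ly6G+ cells (2, Myl4 and Mylpf). Their median differences were -0.52 and -0.94. Between CBL/RUNX1 mutant Ly6G+ cells and CBL/RUNX1 mutant HSCPs 1 of the 7, Mylpf, a light chain gene of fast skeletal muscle, was called higher, with 1.19 ± 0.28 (SE, adjusted p = 0.0281), and 3 had an unadjusted p under 0.05. Of 10 myosin heavy chain, kinase and phosphatase genes 5 were tested, with none called in HSCPs (0 of 5 also unadjusted) and 1, Myh10 with -1.74 ± 0.30 (SE, adjusted p = 0.0436), lower in Ly6G+ cells. For Gm1673, whose product is known in the mouse reproductive tract as a partner of the secreted protein NELL2, a ligand of the receptor ROS1, no partner gene was expressed at a level that could be tested. Nell2 was at 0 in all libraries, Nell1 at most 0.00978 TPM and Ros1 at most 0.0694 TPM.

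**Figure D4:**
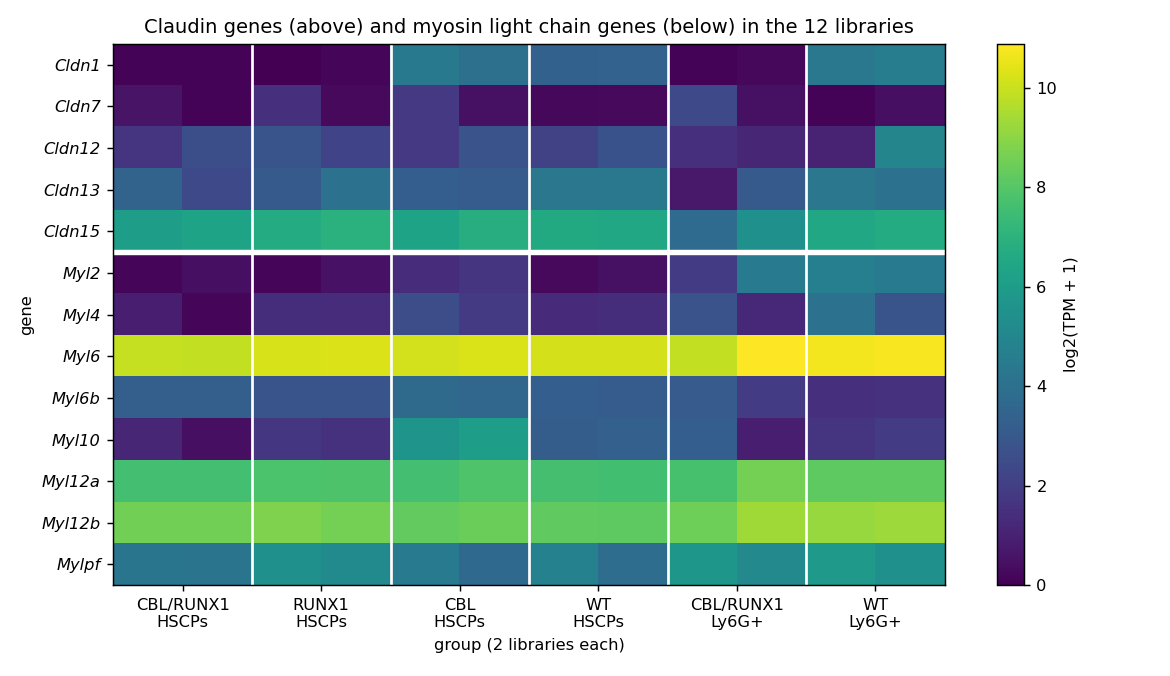
Level as log2(TPM + 1), by colour, of the 5 claudin genes and 8 myosin light chain genes that reached 1 TPM in at least 2 of the 12 libraries. Columns are libraries in pairs by group. The Cldn1 row is dark in the 3 pairs with mutant RUNX1 and bright in the other 3, Cldn15 is bright in all pairs, and Myl10 is brightest in CBL mutant HSCPs.

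Genes next to the 4 on the chromosome had other patterns. P3h2, which encodes a collagen prolyl hydroxylase, is the nearest gene in the table below Cldn1, at 250858 bases. It had 8.70 and 9.12 TPM in CBL/RUNX1 mutant against 7.34 and 6.43 TPM in CBL mutant HSCPs, and the claudin gene Cldn16 on the other side, at 91294 bases, was at 0 in all libraries. Col26a1, a collagen gene 40665 bases from Myl10, had 12.1 and 12.3 TPM in CBL/RUNX1 mutant against 12.2 and 8.30 TPM in CBL mutant HSCPs. Cux1, a homeobox gene 125656 bases away on the other side, had 1.19 and 1.58 TPM against 1.07 and 0.959 TPM. Pfdn1, which encodes a subunit of the chaperone prefoldin and ends 579 bases from Cystm1 on the opposite strand, had 58.9 and 62.2 TPM against 31.7 and 38.2 TPM in the same groups. Pura, 49985 bases away on the other side, had 3.46 and 2.16 TPM against 3.28 and 3.85 TPM.

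Nat8l, which encodes the enzyme that makes N-acetylaspartate, lies 10971 bases from Gm1673 and shared part of its order. It had 1.87 and 1.37 TPM in CBL/RUNX1 mutant against 3.46 and 5.21 TPM in CBL mutant HSCPs. RUNX1 mutant HSCPs had 4.09 and 4.05 TPM of Nat8l against 4.95 and 4.11 TPM in WT HSCPs. In Ly6G+ cells Nat8l had 5.84 and 11.4 TPM in the CBL/RUNX1 mutant against 8.02 and 7.25 TPM in WT, with the second mutant library the higher one, as for Gm1673. Nelfa, a transcription elongation factor gene 47020 bases away on the other side, had 21.4 and 21.8 TPM in CBL/RUNX1 mutant against 16.6 and 17.2 TPM in CBL mutant HSCPs.

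The genes most like each of the 4 were sought by Pearson's r of log2(scaled TPM + 1) over the 12 libraries, among 11424 genes with a mean of at least 1 on that scale. The libraries share groups and marrow composition, so r describes likeness and no p is given. For Cldn1 they were Ldhc (r = 0.949), Rasl11b (0.943), Ncam1 (0.938), Fbxo10 (0.936) and Fam71b (0.936). Ncam1, a cell adhesion gene, had 0.246 and 0.354 TPM in CBL/RUNX1 mutant against 9.26 and 10.8 TPM in CBL mutant HSCPs, and 0.0461 and 0.312 TPM in CBL/RUNX1 mutant against 11.3 and 9.93 TPM in WT Ly6G+ cells. RUNX1 mutant HSCPs had 0.120 and 3.79 TPM of Ncam1 against 8.01 and 6.19 TPM in WT HSCPs, so its second RUNX1 mutant library was much closer to WT than that of Cldn1.

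For Myl10 the likest genes were Bpifc (r = 0.977), B3gnt5 (0.947), Gzmb (0.912), Uchl1 (0.904) and H2afy2 (0.884). Gzmb, a granzyme gene of cytotoxic lymphocytes, had 0.0422 and 0.0424 TPM in CBL/RUNX1 mutant against 9.38 and 6.66 TPM in CBL mutant HSCPs. Bpifc, of a family of lipid-binding proteins, had 0.478 and 0.416 TPM against 9.66 and 8.84 TPM in these groups. For Cystm1 they were Stk39 (r = 0.927), Nxpe2 (0.927), Aldh1a7 (0.926), Nqo1 (0.926) and Col5a1 (0.922). Stk39 had 0.137 and 0.2496 TPM in CBL/RUNX1 mutant Ly6G+ cells against 74.1 and 82.0 TPM in WT Ly6G+ cells.

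For Gm1673 they were C1ra (r = 0.943), Mad2l1bp (0.922), Nudt22 (0.890), Cystm1 (0.877) and Klrb1f (0.865). Mad2l1bp, a cell cycle checkpoint gene, ran from 9.25 to 17.0 TPM before scaling and was highest in CBL/RUNX1 mutant Ly6G+ library 1, where Gm1673 had 1.88 TPM, so its likeness holds for scaled levels. C1ra, a complement gene, had 1.43 and 1.22 TPM in CBL/RUNX1 mutant against 2.79 and 3.11 TPM in CBL mutant HSCPs. Cystm1 was thus the only 1 of the 4 genes among the likest of another. Cldn1 and Cystm1 had r = 0.829, Cldn1 and Gm1673 0.697, Cldn1 and Myl10 0.662, Myl10 and Gm1673 0.591, and Myl10 and Cystm1 0.542.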

How the data were processed

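The data are mRNA levels of 12 sequenced libraries. The submitters' processing notes name kallisto, CASAVA 1.8, bcl2fastq and the build mm10. The kallisto version, annotation release and joining of transcripts to genes are not given in the sources used here. The deposited table holds TPM without scaling between libraries, with sums of 933370 to 981994 per library, and no read numbers, so no depth or counting interval can be given. A symbol was found for 27458 of 28987 identifiers (94.7%), and coordinates are those of GENCODE M21 (GRCm38).

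The 4 genes and all gene lists were chosen with earlier results of these data known. A planned count model was replaced by its planned fallback for TPM. TPM were scaled with trimmed mean factors (trims 0.3 and 0.05, factors 0.709 to 1.501), and limma 3.58.1 in R 4.3.3 was fitted to log2(scaled TPM + 1) with 1 mean per group, trend and robust moderation, on the 8 libraries outside the choice (4 residual degrees of freedom). Genes needed 1 TPM or more in at least 2 of them, which all 4 genes met, Cldn1 and Cystm1 only through libraries without mutant RUNX1. P-values are two-sided and adjusted by Benjamini-Hochberg over 12823 genes, with calls under 0.05. An exact permutation test of 2 against 2 libraries cannot go below 0.333 and was not used. The spread is pooled over 4 groups, of which CBL/RUNX1 mutant Ly6G+ cells varied most. The fit was tested on simulated data in which all libraries had the same spread, so that test does not cover the unequal spread seen here. Genes named are the 4, Cbl, Runx1, Mecom, Ngfr, chromosomal neighbours, the 5 likest genes and list members. Ly6g, Kit and Dntt were looked at after their values were seen, and their levels are printed. Named list members, Lmo1 and Stk39 were picked as examples after seeing values. Alternatives covered scaling, filter, pseudocount, libraries in the fit, replicate block, moderation, array weights and leaving out each library. Start regions are from RefSeq (GRCm38.p6), which gave 3 of the 4 genes. Plots were drawn with matplotlib 3.10.9.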

Additional observations from a re-analysis of the deposited data

Results flagged for a closer look

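Myl10 had differences of opposite sign between HSCPs with and without the CBL mutation, depending on RUNX1. The difference was -0.85 for CBL/RUNX1 mutant minus RUNX1 mutant and 2.19 for CBL mutant minus WT, with no overlap in either pair. Of 12421 genes, 8.58% had opposite signs in these contrasts without overlap.

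Cystm1 and Gm1673 had differences of opposite sign between the cell populations in the CBL/RUNX1 mutant and in WT. For CBL/RUNX1 mutant Ly6G+ cells minus CBL/RUNX1 mutant HSCPs the differences were 0.41 for Cystm1 and 1.31 for Gm1673, and neither passed (limma, adjusted p = 0.275 and 0.136). Without CBL/RUNX1 mutant Ly6G+ library 2 the Gm1673 value was 0.39. For WT Ly6G+ cells minus WT HSCPs they were -1.49 and -2.13. Such opposite placement was found for 2.5% of 12639 genes. None of these 3 differences between contrasts was tested, since each uses libraries that chose the genes.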

How the results depend on the processing

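Of 20 alternatives each, Cldn1 was called in 17 in both comparisons with the RUNX1 mutation, at differences from -6.81 to -2.14 in HSCPs and from -7.01 to -2.63 in Ly6G+ cells, the ends being pseudocounts of 0.1 and 5. Myl10 in HSCPs was called in 13, and Cystm1 in 11 in HSCPs and 12 in Ly6G+ cells. Gm1673 in HSCPs was called in 4, among them the fit of the 4 libraries of both groups (adjusted p = 0.00198) and array weights (0.00108). In Ly6G+ cells the 4-library fit lost Cldn1 (adjusted p = 0.166) and Cystm1 (0.214), and array weights lost Cystm1 (0.207). In HSCPs Cystm1 was lost with a pseudocount of 5 (0.061) and with all 12 libraries (0.0659). The replicate block changed calls of Myl10 (0.0528) and Cystm1 (0.0733) in HSCPs. Correlations of replicate differences between groups ran from -0.01 to 0.46 and exceeded 0.1 in 6 of 15 pairs of groups. Among the 6 were CBL mutant with CBL/RUNX1 mutant HSCPs (0.18) and WT with CBL/RUNX1 mutant Ly6G+ cells (0.19). As the other pairs did not exceed 0.1, the numbers were not taken as pairing the libraries.

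Genes called in HSCPs numbered 89, against 2159 in the 4-library fit, 176 with all 12 libraries, 29 with the replicate block, 2458 with array weights and 0 to 2641 on leaving out 1 library. Where it was 0, limma gave 806 to 1090 genes at an unadjusted p under 0.05. In Ly6G+ cells the count was 361, against 141 unscaled, 163 with a pseudocount of 0.1, 0 in the 4-library fit (1657 at an unadjusted p under 0.05), 1021 with all 12 libraries, 153 with the block, 11 with array weights and 2 to 7617 on leaving out 1 library. Between populations it was 3016, against 4 in the 4-library fit, 146 with array weights and 7 to 7452 on leaving out 1 library. The causes were not tested. Alternatives for a count table were not run, since the table holds TPM.

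Directions turned for uncalled values. Myl10 in Ly6G+ cells was 0.26 unscaled and 0.67 without CBL/RUNX1 mutant Ly6G+ library 2, and Gm1673 0.47 without library 1, against -1.13 and -1.37 without the other of these libraries. Cldn1 between populations was 0.00 without library 2 and 0.16 without library 1. For CBL/RUNX1 minus RUNX1 mutant HSCPs, without RUNX1 mutant library 2, Cldn1 was 0.08 and Cystm1 0.28, and without library 1 they were -0.14 and -1.18. Scaling moved the median of all genes in Ly6G+ cells by more than 0.1, to 0.57 unscaled against 0.08 scaled, and in HSCPs to 0.21 against 0.02. The set of 46 genes held 50 and 55 without RUNX1 mutant HSCP library 1 and CBL/RUNX1 mutant Ly6G+ library 1, omissions chosen after seeing the data.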
